A study of Mus musculus with 30 samples.

Results

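The genes described here are the protein-coding mouse genes whose symbol starts with Nduf, named for NADH:ubiquinone oxidoreductase, or complex I of the mitochondrial respiratory chain. They were chosen by symbol in the GENCODE M21 annotation, which gave 46 of the 48820 genes in the deposited table, and no measured value entered the choice. By place in the complex they comprise 10 genes of the N module, 6 of the Q module, 9 of the proximal and 11 of the distal membrane arm, 8 assembly factors (Ndufaf1 to Ndufaf8), and the pair Ndufa4 and Ndufa4l2. Ndufa4 carries a complex I name, but its protein is now counted as a subunit of cytochrome c oxidase (complex IV), so the pair was kept apart from the 36 complex I subunit genes. Poly(A) RNA of mouse hearts, genotype wild type and without treatment, was sequenced at 10 ages: embryonic days 10.5, 12.5, 14.5, 16.5 and 18.5 (E10.5 to E18.5), postnatal day 1 (P1) and postnatal weeks 1, 2, 4 and 8 (1W to 8W). Each age had 3 libraries, 30 in all, with totals of 23164934 to 50519452 counts. Strain, sex and pooling are not stated in the labels, nor whether same-age libraries are from different animals, and p-values therefore reflect only how much these libraries varied. Levels are given as CPM, the count divided by the scaled library size (trimmed mean of M values) and set to the same total in each library. Changes are log2(later/earlier) ± SE, and a gene is said to have risen or fallen where its adjusted p in edgeR's quasi-likelihood test was under 0.05, adjusted over the 19280 genes tested.

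Complex I oxidises NADH in the matrix arm, passes the electrons along iron-sulfur clusters to ubiquinone and pumps protons through its membrane arm. The N module holds the NADH site, the Q module the ubiquinone site, and the membrane arm is built around proteins encoded by mitochondrial DNA. Of the nuclear subunits, 7 are core subunits, which have bacterial counterparts and as a set, though not each, carry the flavin and iron-sulfur clusters. The others are accessory. Assembly factors help to build or modify parts of the complex and are not part of the finished enzyme. The adult heart draws most of its ATP from oxidative phosphorylation and is rich in mitochondria, more so than the embryonic heart.

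All 46 genes passed the low-count filter, and the lowest count of any of them in any library was 13, for Ndufa4l2 at E10.5. Libraries of some ages differed for most of the family. In E10.5 replicate 2, 43 of 46 genes were the highest of the 3 E10.5 libraries, and the median gene stood 0.64 log2 units above the mean of the other E10.5 libraries, against -0.04 over all genes tested. Ndufb11, an accessory subunit of the distal arm, had 144 CPM in that library and 42.3 and 40.4 CPM in the others, the widest gap (1.80 log2 units), and Ndufaf4 was lowest on this measure (-0.14). Across the 46 genes the offset was larger for shorter transcripts (Pearson r = -0.36 with log10 length, Spearman rho = -0.42), as a description across genes of a single library, and the part of RNA quality or library making in it was not tested. Replicate 2 was also the highest of its age for 42 of 46 genes at 2W and 39 at 1W, with median offsets of 0.21 and 0.14 log2 units, against -0.01 and 0.01 over all genes tested. Results that rest on these 3 libraries are therefore also given without them. At every age the cardiomyocyte markers (Tnnt2, Actc1, Ryr2 and others) were present in each library. Transcripts from the Y chromosome (Ddx3y, Eif2s3y, Kdm5d and Uty, summed) stood at 0 CPM at 4W and 8W and at 168 to 183 CPM at P1, and Xist, the RNA of the inactive X chromosome, at 122 to 154 CPM at 8W and 1.30 to 1.84 CPM at P1, so sex and age cannot be told apart in comparisons of 8W with P1. The 3 libraries of E18.5 covered both states (Y-linked sums of 0 to 172 CPM, Xist at 1.46 to 1660 CPM). Each E10.5 library held both Y-linked RNA (31.3 to 177 CPM) and Xist (694 to 1600 CPM), so none can be assigned to a single sex. At E12.5 Xist stood at 309 to 1050 CPM and the Y-linked sums at 0.257 to 132 CPM.

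The whole course was examined first. All 46 genes changed across the 10 ages, where 93.6% of all genes tested did so, and 43 of the 46 had their highest mean at 8W. Exceptions were Ndufc2, a subunit of the proximal arm (highest at E10.5), Ndufaf2 (E12.5) and Ndufa4l2 (1W). Ndufc2 averaged 94.2 ± 8.02 CPM at 8W, and its E10.5 mean rested on replicate 2, which had 161 CPM beside 65.2 and 66.3 CPM in the other libraries. The lowest mean fell at E14.5 for 26 genes and at E10.5 for 13, counts that depended on E10.5 replicate 2. In Ndufa7, Ndufb8 and Ndufb11, among the 26, replicates 1 and 3 of E10.5 stood below every E14.5 library, whereas in Ndufa12 they stood above. P1 was the lowest age for 5 genes, namely Ndufb2, Ndufaf2, Ndufaf5, Ndufaf6 and Ndufaf7, of which 4 are assembly factors. For Ndufb2 this rested on the same library, as E10.5 replicates 1 and 3 had 28.7 and 24.4 CPM, below its P1 mean of 29.9 CPM. For Ndufaf6 it rested on E14.5 replicate 2 (6.365 CPM), as replicates 1 and 3 of E14.5 had 4.24 and 4.16 CPM, below its P1 mean of 4.60 CPM. The ratio of the highest to the lowest age mean ran from 1.55 for Ndufc2 through 10.1 for Ndufv1, which binds NADH and the flavin, to 19.0 for Ndufa4l2. Over the 10 age means of log2 CPM, 27 genes had a Pearson r of at least 0.9 with the median profile of the other members, and Ndufaf2 (-0.20), Ndufc2 (0.46) and Ndufaf5 (0.53) were least like it. These correlations are descriptions over 10 ages measured in shared libraries.

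**Figure D1:**
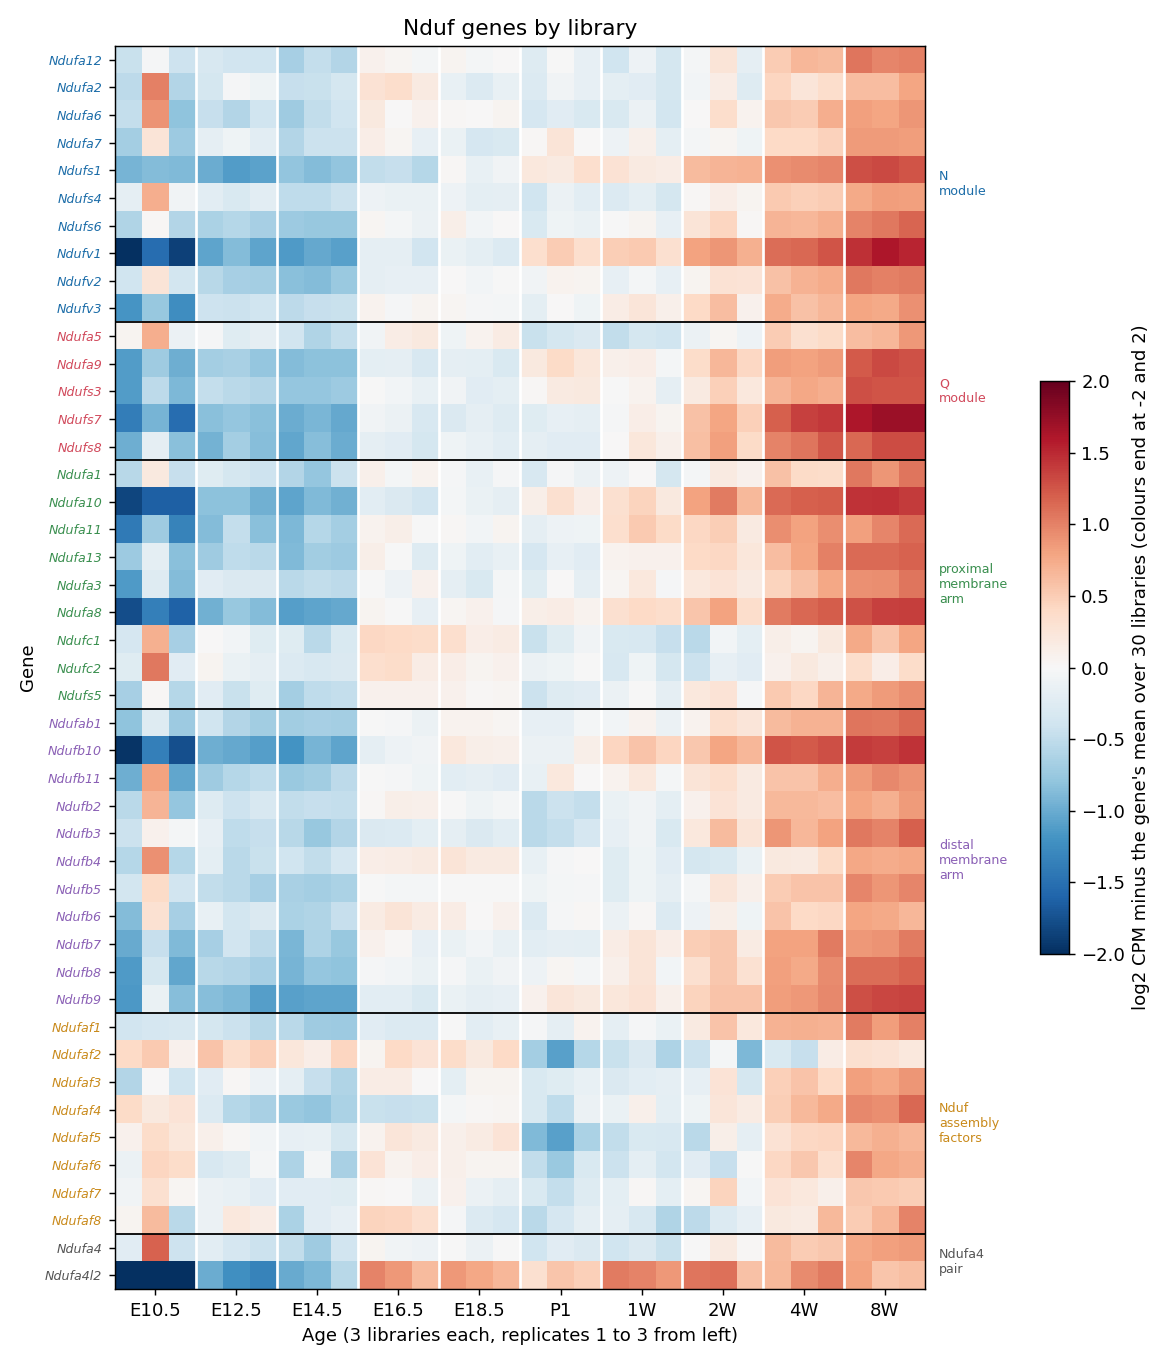
Each row is a Nduf gene (the gene not reported here is left out), grouped and coloured by place in the complex, and each column a library, from E10.5 to 8W; colour gives log2 CPM minus the gene's mean over the 30 libraries. Most rows are low to E14.5 and highest at 8W, E10.5 replicate 2 is higher than its neighbours in most rows, and Ndufaf2 and Ndufaf5 are lowest at P1.

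Per kilobase of the longest principal transcript, Ndufb8 and Ndufb9, accessory subunits of the distal arm, were among the 3 highest at 8W, with 706 ± 17.5 and 671 ± 14.3 CPM per kb (SD, n = 3 each). The lowest levels were in assembly factors, with 8.68 ± 0.361 CPM per kb for Ndufaf2, 10.7 ± 1.02 for Ndufaf6 and 12 ± 0.448 for Ndufaf3. The 3 lowest genes were thus all assembly factors, and all levels per kb depend on which transcript is taken as the length.

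The median over the 46 genes of centred log2 CPM was -0.44 ± 0.40 (SD, n = 3) in E10.5 hearts and -0.45 ± 0.07 in E12.5 hearts. Its lowest mean was in E14.5 hearts (-0.65 ± 0.04), followed by -0.03 ± 0.06 at E16.5 and -0.04 ± 0.04 at E18.5. That rank of E14.5 below E10.5 rested on E10.5 replicate 2 (0.02). Replicates 1 and 3 of E10.5 stood at -0.64 and -0.70, within or below the E14.5 libraries (-0.67, -0.67 and -0.60). Between E14.5 and E16.5 the libraries did not overlap for 45 of 46 genes, all 3 at E16.5 standing above all 3 at E14.5, where 24.2% of all genes tested did so. Ndufaf2 was the exception. Erythroid markers summed to 18900 to 33600 CPM at E16.5 and 4840 to 6780 CPM at E14.5, and cardiomyocyte markers to 45100 to 48300 CPM at E16.5 and 39500 to 39900 CPM at E14.5; their part in this step was not tested. The step was singled out after its values were seen and was not tested gene by gene. Because whole hearts were sequenced, more cells rich in mitochondria and more RNA per cell cannot be told apart here or in any result below.

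E18.5 against E10.5 asked what changed over the part of gestation sampled. Of the 46 genes, 23 rose and 2 fell, against 32.9% and 30.4% of all genes tested, with a median log2 change of 0.29 over the members, while that of all genes lay at 0. Ndufa4l2 had the largest rise (4.04 ± 0.22), and 8 others rose at least 2-fold, among them Ndufb10, Ndufa8, Ndufv1 and Ndufa10. Leaving out E10.5 replicate 2 gave 36 that rose and 1 that fell, with backgrounds of 31.5% and 28.3%. The falls numbered 4 when E10.5 replicate 1 was left out, 6 when replicate 3 of that age was, and 1 when E18.5 replicate 1 was. Scaled by library size alone, 21 rose and 7 fell (27.6% and 36.6%). All 10 cardiomyocyte markers rose in this comparison, with sums of 81500 to 89700 CPM at E18.5 and 21900 to 40100 CPM at E10.5. So did 7 of 8 fibroblast markers (median 3.02) and 7 of 8 macrophage markers (median 4.13), and the part of these cell types in the members' changes was not tested.

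Among these risers, Ndufb10, an accessory subunit of the distal arm, had 159, 149 and 148 CPM at E18.5, against 35.5, 53.4 and 40.9 CPM at E10.5. Its log2 change was 1.81 ± 0.10 (edgeR adjusted p = 1.1e-16), and the groups did not overlap, with or without replicate 2 of E10.5. Ndufa8, an accessory subunit of the proximal arm, had 106, 108 and 101 CPM at E18.5 and 29.9, 39.7 and 33.4 CPM at E10.5. Its change was 1.61 ± 0.09 (4.7e-16). Ndufv1 (chromosome 19, 4007384 to 4012806, minus strand) averaged 241 ± 11.7 CPM at E18.5 and 79.3 ± 15.2 CPM at E10.5 (SD, n = 3 each), a change of 1.60 ± 0.10 (1.8e-15).

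Core subunits gave 6 risers of 7, with a median of 0.83. Beside Ndufv1 they included Ndufs7 (1.01 ± 0.10), which carries the last iron-sulfur cluster before ubiquinone, and Ndufs1 (0.83 ± 0.07), the largest iron-sulfur subunit of the N module. Ndufs3 (0.66 ± 0.10) and Ndufs8 (0.48 ± 0.13), both of the Q module, rose less. Ndufv2, an iron-sulfur subunit of the N module, did not pass (0.11 ± 0.10, adjusted p = 0.35), with 197 ± 4.76 CPM at E18.5 and 182 ± 49.8 CPM at E10.5. The 29 accessory subunits had 15 risers and 1 fall, 26 and 0 without E10.5 replicate 2. The fall was Ndufs4, a small subunit of the N module, at -0.38 ± 0.13 (adjusted p = 0.012), and it rested on that library, with -0.03 and 0.71 without it.

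Few assembly factors were called. Of the 8 Nduf assembly factors 1 rose and 1 fell between E10.5 and E18.5, with a median change of -0.11. Ndufaf1, a partner of Ecsit and Acad9 in building the membrane arm, stood at 0.22 ± 0.09 (adjusted p = 0.036), a call that was lost under 10 of the alternatives, with an adjusted p of up to 0.6. Ndufaf4, which binds Ndufaf3 on the way to the Q module, fell by 0.28 ± 0.10 on the log2 scale (0.020), with 23.5 ± 0.579 CPM at E18.5 and 28.6 ± 1.94 CPM at E10.5. Its call was lost without E10.5 replicate 1 (0.09) or E18.5 replicate 1 (0.066). Counted from E12.5, which leaves out all E10.5 libraries, 26 of the 46 genes rose and 0 fell by E18.5 (24.8% and 25.1% of all genes tested by edgeR), 27 had an unadjusted p under 0.05 (55.1% of all genes tested), and all 7 core subunits were among the risers. With library size alone 18 rose and 2 fell (16.9% and 36.9%).

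The comparison of P1 with E18.5 spans birth. Of the 46 genes 6 rose and 7 fell, against 19.8% and 19% of all genes tested. With TMM scaling and all libraries, the family's shares were thus smaller than those of all genes, which for the falls depended on the fit. The median log2 change was -0.11 over the members and -0.01 over all genes. Core subunits accounted for 4 of the rises (Ndufv1 and Ndufs1 among them), and assembly factors for 5 of the falls (Ndufaf2, Ndufaf5, Ndufaf6, Ndufaf4 and Ndufaf7). The accessory subunits had 2 rises (Ndufa9 and Ndufa10) and 2 falls (Ndufa5 and Ndufs5). Scaling by library size alone, which moved the median of all genes from -0.01 to -0.12, gave 3 rises and 15 falls (backgrounds of 13.4% and 24.5%). Without E10.5 replicate 2, whose spread enters the shared fit, there were 9 rises and 14 falls (21.1% and 20.4%). Under either of these alternatives the share of the family that fell was above that of all genes, and the share that rose was below it. Without P1 replicate 2 there were 3 rises, and without P1 replicate 1 there were 3 falls.

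Ndufv1 had 348, 391 and 348 CPM at P1, against 253, 242 and 229 CPM at E18.5. All P1 libraries stood above all E18.5 libraries, and the change was 0.59 ± 0.10 (edgeR adjusted p = 1.1e-05). Ndufa9, an accessory Q module subunit that binds NADPH, had 236, 269 and 240 CPM at P1 and 182, 179 and 166 CPM at E18.5, a change of 0.50 ± 0.09 (2.2e-05). Ndufs1 (0.31 ± 0.07, 0.0006), which overlaps a noncoding gene on the other strand over 489 exonic bases, Ndufa10 (0.30 ± 0.09, 0.007) and Ndufs3 (0.29 ± 0.10, 0.018) also rose. The call of Ndufs3 was lost with library size alone (0.11) and without E18.5 replicate 3 (0.063) or P1 replicate 2 (0.058), where the core subunits had 2 rises. It was also lost without E18.5 replicate 2 (0.072) or P1 replicate 3 (0.08). Median transcript length was 1642 bases for the genes that rose, 1082 for those that fell and 861 for those not called, and its part in the calls was not tested.

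The assembly factors Ndufaf5 and Ndufaf2 had the largest falls of the family. Ndufaf5 (chromosome 2, 140170649 to 140203689, plus strand) modifies an arginine of Ndufs7, as known from human cells. It had 5.87, 5.12 and 6.97 CPM at P1, against 11.7, 12.2 and 13.1 CPM at E18.5. The groups stood apart, and the change was -1.04 ± 0.13 (edgeR adjusted p = 8e-08). Ndufaf2, which joins a late assembly intermediate, had 3.03, 2.29 and 3.28 CPM at P1 and 6.28, 5.55 and 6.44 CPM at E18.5, a change of -1.08 ± 0.18 (1.4e-05). Its exons are overlapped over 1955 bases by a gene on the other strand. The sources used here do not give the strand setting of the counting, so reads of the 2 cannot be told apart and its level is uncertain.

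Ndufaf6 had 4.65, 3.89 and 5.27 CPM at P1, against 7.01, 6.79 and 6.77 CPM at E18.5 (-0.57 ± 0.16, edgeR adjusted p = 0.005), again without overlap. Ndufaf4 (-0.30 ± 0.11, 0.023) and Ndufaf7, a methyltransferase (-0.28 ± 0.11, 0.042), fell less. Both calls were lost without E18.5 replicate 2 (0.058 and 0.061), P1 replicate 1 (0.054 and 0.067) or P1 replicate 2 (0.16 and 0.18), where 3 of the 8 assembly factors fell. That of Ndufaf4 was also lost without E18.5 replicate 3 (0.064), and that of Ndufaf7 without E18.5 replicate 1 (0.21) or with no low-count filter (0.051). Ndufaf1 (0.09 ± 0.09, 0.49), Ndufaf3 (-0.21 ± 0.14, 0.24) and Ndufaf8 (-0.13 ± 0.20, 0.65) did not pass. The difference between assembly factors and subunits was itself not tested.

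Of the accessory subunits, Ndufa5, of the Q module, fell by 0.42 ± 0.13 on the log2 scale (edgeR adjusted p = 0.014) and Ndufs5, of the proximal arm, by 0.36 ± 0.11 (0.014). The call of Ndufa5 was lost without E18.5 replicate 3 (0.066) or P1 replicate 1 (0.058), and that of Ndufs5 without P1 replicate 1 (0.075). None of the 11 distal arm genes was called, in a fit whose spread includes E10.5 replicate 2. Ndufb2, of that arm, stood 1.33 log2 units above the other E10.5 libraries there. It had 28.8, 30.9 and 29.9 CPM at P1, all below its 41.6, 39.1 and 40.5 CPM at E18.5 (-0.44, not called). The part of that spread in which groups were called was not tested. Counted by libraries, 20 genes had all 3 P1 values below all 3 E18.5 values (43.5% of the family, 25.6% of all genes tested) and 9 had them all above (19.6% and 25.2%), and 16 of the 46 had an unadjusted p under 0.05, where 46.1% of all genes tested did. The cardiomyocyte markers summed to 97100 to 114000 CPM at P1 and 81500 to 89700 CPM at E18.5. Of the adipocyte markers 4 of 6 rose, with sums of 295 to 374 CPM at P1 and 135 to 145 CPM at E18.5, where Cfd, Retn and Ucp1 were at 0. Macrophage and endothelial markers had 6 rises of 8 each, with 1 fall among the second. The part of these cell types in the members' changes was not tested.

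**Figure D2:**
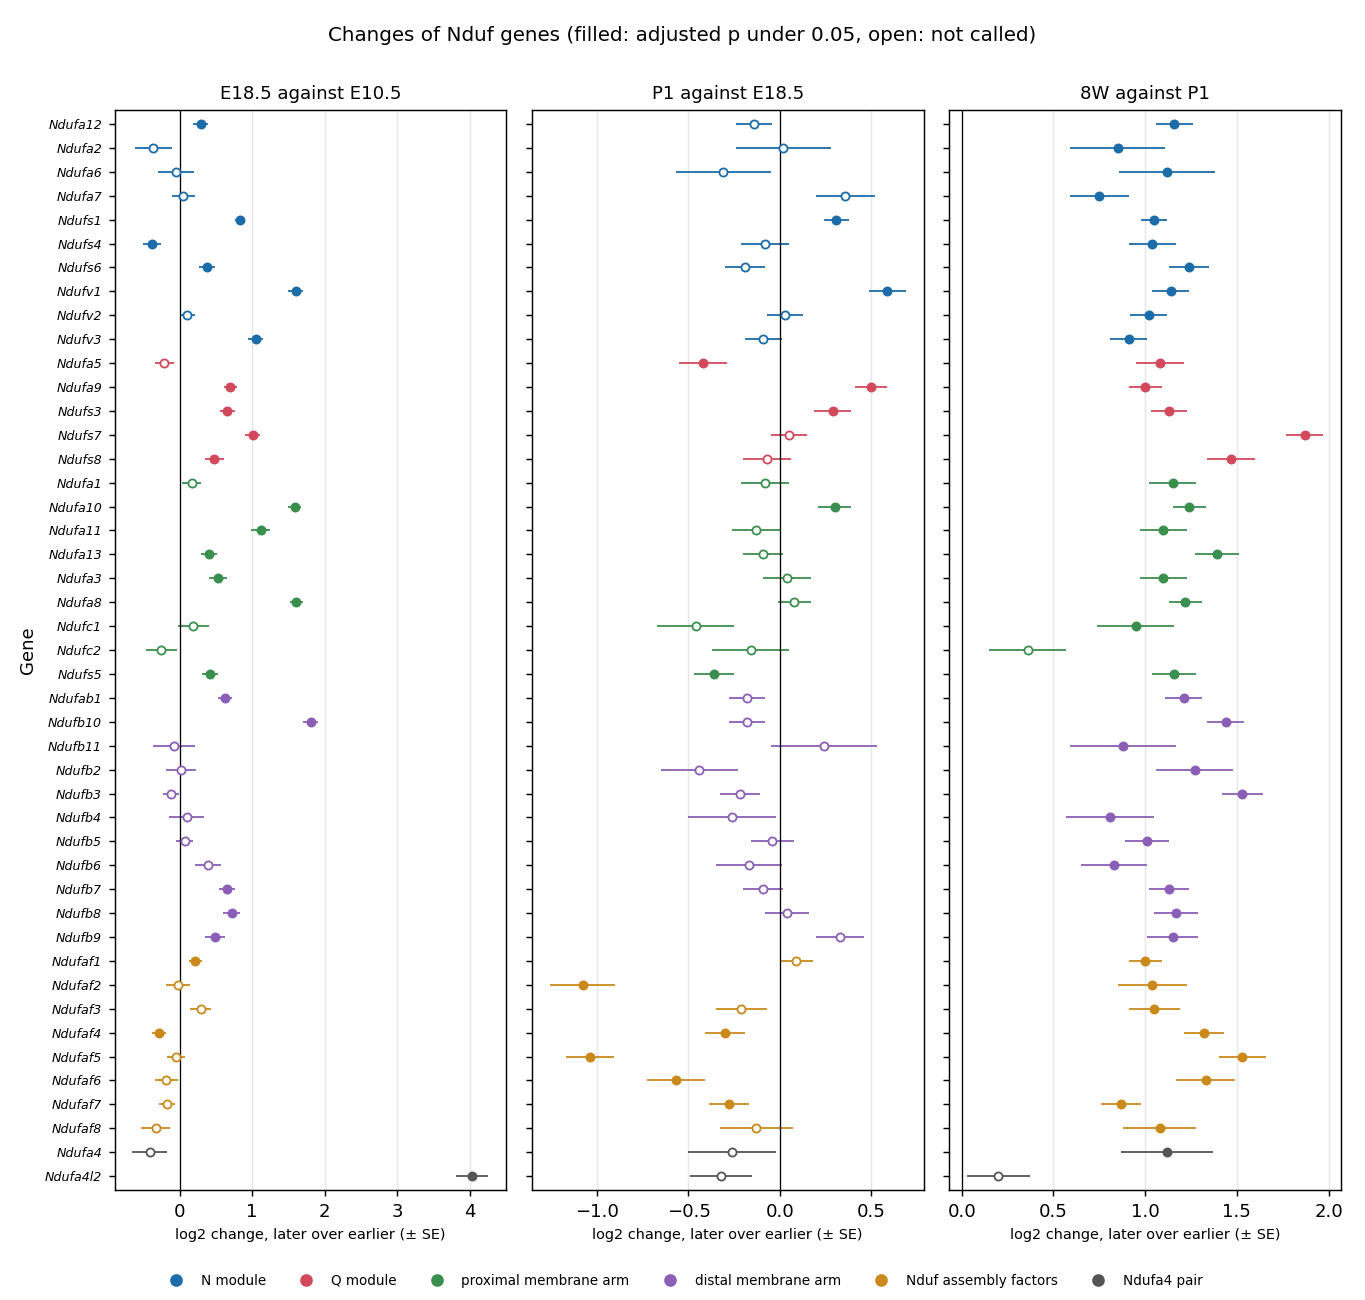
Points give each gene's log2 change (later over earlier) with its SE for the 3 main comparisons (panel titles); colours mark the place in the complex and filled points an adjusted p under 0.05. In P1 against E18.5 the filled points right of 0 are subunits and those furthest left are the assembly factors Ndufaf2 and Ndufaf5, whereas in 8W against P1 all points shown lie right of 0.

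8W against P1 asked what changed from birth to the adult heart. Nearly the whole family was higher at 8W. Of the 46 genes 44 rose and 0 fell, against 31.8% and 35.1% of all genes tested, 36 of them at least 2-fold. At an unadjusted p under 0.05 edgeR also passed 44 (69.5% of all genes). Without E10.5 replicate 2 the rises numbered 45 (32.2%). The median log2 change was 1.12, against -0.10 over all genes. The medians by place in the complex were 1.04 for the N module (10 of 10 rose), 1.20 for the Q module (6 of 6), 1.15 for the proximal arm (8 of 9), 1.15 for the distal arm (11 of 11) and 1.07 for the assembly factors (8 of 8). With library size alone, which moved the median of all genes to -0.88, 31 rose and 2 fell (11.5% and 65.2% of all genes), and 4 of the 8 assembly factors rose. The size of the rises also depended on the scaling, and the 2-fold count is that with TMM. As a share of all counts, the nuclear subunit genes together took 0.486% ± 0.023 at P1 and 0.629% ± 0.0079 at 8W (SD, n = 3 each).

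Ndufs7 (chromosome 10, 80249121 to 80256794, plus strand) had 212, 225 and 227 CPM at 8W, against 58.6, 61.6 and 61.3 CPM at P1. This was the largest rise of the family, at 1.87 ± 0.10 (edgeR adjusted p = 4.4e-17). Ndufb3, a small accessory subunit of the distal arm, averaged 85.8 ± 6.16 CPM at 8W and 29.6 ± 2.07 CPM at P1 (1.53 ± 0.11, 2.1e-13). Ndufaf5, which had fallen across birth, had 17.1, 17.8 and 17.2 CPM at 8W, above the 5.87, 5.12 and 6.97 CPM at P1 (1.53 ± 0.13, 2.8e-12). Ndufs8, a core iron-sulfur subunit of the Q module, averaged 169 ± 9.74 CPM at 8W and 61.2 ± 1.04 CPM at P1 (1.47 ± 0.13, 1.2e-10).

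All 7 core subunits rose, among them Ndufv1 (1.14 ± 0.10), Ndufs3 (1.13 ± 0.10), Ndufs1 (1.05 ± 0.07) and Ndufv2 (1.02 ± 0.10). Ndufs1 averaged 1120 ± 26.9 CPM at 8W and 541 ± 30.4 CPM at P1. The assembly factors Ndufaf6 (1.33 ± 0.16), Ndufaf4 (1.32 ± 0.11), Ndufaf8 (1.08 ± 0.20), Ndufaf3 (1.05 ± 0.14), Ndufaf2 (1.04 ± 0.19), Ndufaf1 (1.00 ± 0.09) and Ndufaf7 (0.87 ± 0.11) also rose. Ndufaf2 then stood at 5.89 ± 0.245 CPM at 8W, against 6.09 ± 0.472 CPM at E18.5, a pair that was not tested.

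Both genes without a call were the exceptions named above. Ndufc2 had 98.4, 84.9 and 99.2 CPM at 8W, against 71.5, 72.5 and 76.7 CPM at P1 (0.36 ± 0.21, edgeR adjusted p = 0.14), with no overlap between the groups. Ndufa4l2 had 14.6, 12.2 and 12.6 CPM at 8W, against 10.4, 12.2 and 11.5 CPM at P1 (0.20 ± 0.17, 0.30), and its groups overlapped. The X-linked members Ndufa1 (1.15 ± 0.13) and Ndufb11 (0.88 ± 0.29) stood beside the family's median of 1.12. Ndufb4 (0.81 ± 0.24) shares sequence with the processed pseudogene Ndufb4c, which reached 31.8 CPM, so the split of reads between them is uncertain. Cardiomyocyte markers summed to 229000 to 248000 CPM at 8W and 97100 to 114000 CPM at P1, and macrophage markers to 514 to 551 CPM at 8W and 153 to 205 CPM at P1. Fibroblast markers were lower in sum, with 2640 to 2950 CPM at 8W and 6850 to 9180 CPM at P1, and 5 of 8 fell and 2 rose. All 6 epicardial markers (median -1.96), 6 of 8 endothelial and 8 of 10 erythroid markers also fell. The part of cell composition in the rise was not tested.

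**Figure D3:**
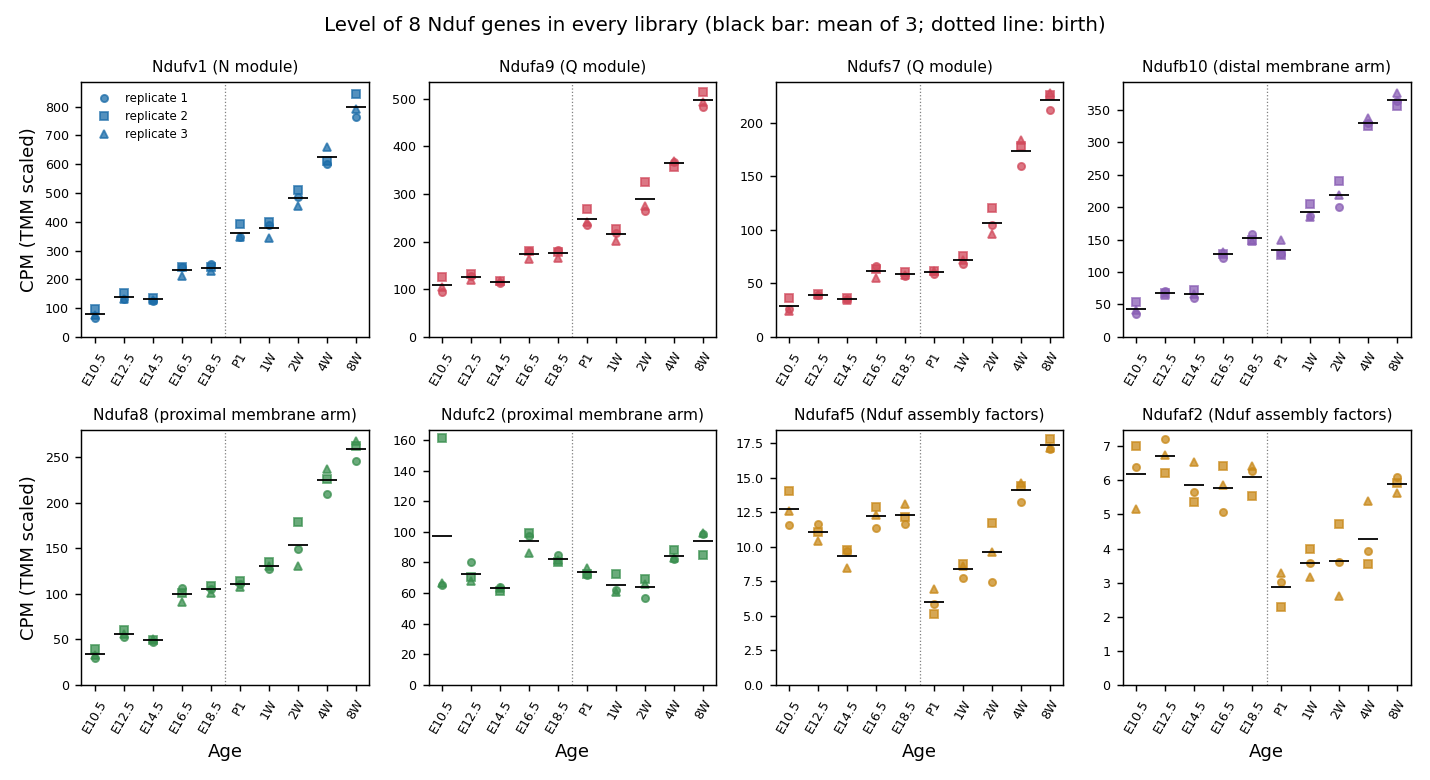
Scaled CPM in each of the 30 libraries for 8 Nduf genes, with the age on the horizontal axis, points by replicate and a black bar at each mean of 3. Ndufv1, Ndufa9, Ndufs7, Ndufb10 and Ndufa8 reach their highest means at 8W, Ndufc2 has its highest single value (161 CPM) in E10.5 replicate 2, and Ndufaf5 and Ndufaf2 have their lowest means at P1.

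The postnatal ages were also compared step by step. From P1 to 1W, 10 of the 46 genes rose and 0 fell (18.8% and 17% of all genes tested), a share of rises near that of all genes, led by Ndufa11 (0.54 ± 0.13) and Ndufb10 (0.51 ± 0.10), while 2 of the 7 core subunits rose. Those 2 were Ndufs7 and Ndufs8, whose calls were lost under many alternatives. Among these were RLE size factors (edgeR adjusted p = 0.054 each), upper quartile factors (0.086 and 0.07) and removal of 1W replicate 2 (0.13 and 0.15). From 1W to 2W, 15 rose and 0 fell (15.5% and 14.1%). The risers held all 7 core subunits, all 6 Q module genes, 2 of the 11 distal arm genes and 1 of the 9 proximal arm genes. This difference between modules was not tested, nor was the part in it of E10.5 replicate 2, whose spread enters the shared fit. In that step the call of Ndufa5 was lost under most alternatives, among them the replicate block (0.054), no filter (0.084) and removal of 2W replicate 2 (0.17). Ndufs3 and Ndufv2 were also lost without 1W replicate 3 (0.086 and 0.062) or 2W replicate 2 (0.12 and 0.07). From 2W to 4W, 34 rose and 0 fell (15.8% and 13%), including 6 of the 8 assembly factors, and from 4W to 8W 21 rose and 0 fell (11.8% and 12.1%). Ndufs7 led the steps to 2W (0.57 ± 0.10) and 4W (0.70 ± 0.10). At an unadjusted p under 0.05, 14, 25, 37 and 32 of the members passed in these steps, where 44.2%, 39.1%, 39.2% and 35.5% of all genes tested did. Without E10.5 replicate 2 the rises were 14 (20.3% of all genes), 29 (17.1%), 43 (18.1%) and 36 (14.7%). The rises to 1W were 4 without P1 replicate 1 and 5 without 1W replicate 2, and those to 2W were 9 without 1W replicate 3 or 2W replicate 2 and 15 without 1W replicate 2. The rises to 4W were 33 without 2W replicate 2. Those to 8W were 10 without 4W replicate 1, 13 without 4W replicate 2 and 11 without 8W replicate 3. With library size alone the rises were 5 (13%), 3 (5.87%), 12 (6.46%) and 6 (4.15%).

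**Figure D4:**
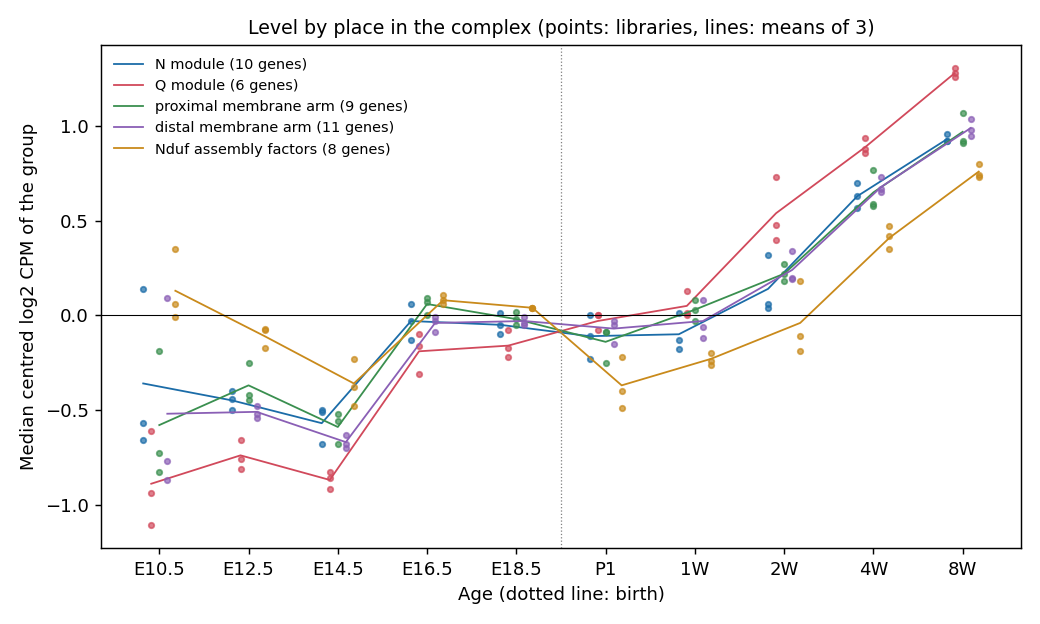
The vertical axis gives the median over each group's genes of log2 CPM centred per gene, with points for libraries and lines through the means of 3, by age. All groups of subunits are lowest at E10.5 or E14.5 and highest at 8W; the Q module has the highest level at 8W (1.28 ± 0.02) and the assembly factors are lowest at P1 (-0.37 ± 0.14), close to their E14.5 level (-0.36 ± 0.13).

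Of the 4 subunit groups, the Q module covered the widest range, with a median centred level of -0.89 ± 0.25 in E10.5 hearts at one end of the series and 1.28 ± 0.02 in 8W hearts at the other. Assembly factors started higher, at 0.13 ± 0.19 in E10.5 hearts, and had -0.36 ± 0.13 in E14.5, -0.37 ± 0.14 in P1 and 0.76 ± 0.04 in 8W hearts. These medians carry no test.

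Ndufa4 and its paralog Ndufa4l2 were compared within each library, which needs no scaling between libraries. Ndufa4l2 is known as a target of hypoxia-inducible factor that lowers respiration in cultured cells. Their coding sequences are shown because reads from identical stretches could be counted to either gene. Capitals mark bases identical between them in a pairwise alignment, 158 of 246 aligned bases (64.2%), with a longest identical run of 28 bases, in the GENCODE M21 transcripts of GRCm38 (chromosome 10, plus strand, for Ndufa4l2 and chromosome 6, minus strand, for Ndufa4).
Ndufa4l2: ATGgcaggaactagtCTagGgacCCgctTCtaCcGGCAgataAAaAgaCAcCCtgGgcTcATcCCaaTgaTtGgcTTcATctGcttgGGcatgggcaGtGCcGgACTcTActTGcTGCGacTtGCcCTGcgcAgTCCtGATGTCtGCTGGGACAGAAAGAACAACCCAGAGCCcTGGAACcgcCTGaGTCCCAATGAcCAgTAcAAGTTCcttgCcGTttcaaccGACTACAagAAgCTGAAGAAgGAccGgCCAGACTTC
Ndufa4: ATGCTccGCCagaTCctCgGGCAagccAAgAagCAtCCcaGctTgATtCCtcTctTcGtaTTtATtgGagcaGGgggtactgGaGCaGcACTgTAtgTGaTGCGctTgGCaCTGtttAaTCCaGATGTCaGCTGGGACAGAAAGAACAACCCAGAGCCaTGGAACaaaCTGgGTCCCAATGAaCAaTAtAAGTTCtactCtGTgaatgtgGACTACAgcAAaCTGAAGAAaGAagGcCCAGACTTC

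Ndufa4l2 took 10.5%, 9.47% and 9.67% of the summed counts of the pair at 1W, and 0.254%, 0.319% and 0.521% at E10.5. In order of age, its mean share was 0.365% ± 0.139 (SD, n = 3) in E10.5 hearts, 2.32% ± 0.107 in E12.5 and 3.43% ± 0.439 in E14.5 hearts. It then stood at 7.32% ± 0.564 (E16.5), 7.05% ± 0.567 (E18.5) and 6.80% ± 0.141 (P1). After the peak of 9.89% ± 0.569 (1W) it was lower at each age, with 7.29% ± 1.18 (2W), 5.14% ± 0.842 (4W) and 3.73% ± 0.444 (8W). The share differed between ages (permutation test of the F ratio, 100000 resamples, p = 1e-05, the smallest they can give). At E10.5 the share rested on 13 to 47 Ndufa4l2 counts beside 5109 to 14689 of Ndufa4. The means of E16.5, E18.5, P1 and 2W, neighbours in level, did not differ beyond the spread of their libraries.

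Ndufa4l2 itself rose in gestation, with 15.2, 14.2 and 13.1 CPM at E18.5, against 0.420, 1.40 and 0.755 CPM at E10.5 (4.04 ± 0.22, edgeR adjusted p = 8.8e-17). Ndufa4 did not pass in that comparison (-0.41 ± 0.24, 0.15). It averaged 187 ± 8.64 CPM at E18.5, and at E10.5 it had 437 CPM in replicate 2 beside 165 and 144 CPM in the others. It rose from P1 to 8W (1.12 ± 0.25, 0.00041), with 338 ± 9.64 CPM at 8W and 156 ± 9.49 CPM at P1, but with library size alone the change was 0.34 and not called (0.14). In none of the steps between P1 and 8W was Ndufa4 called, with log2 changes of -0.07, 0.44, 0.5 and 0.25 in order of age. It averaged 148 ± 8.75 CPM at 1W, 201.5 ± 13.5 CPM at 2W and 284 ± 14.1 CPM at 4W. From 1W to 8W all libraries of each age stood above all those of the age before. The wide spread of its E10.5 libraries enters the SE of these steps. Ndufa4l2 rose in 1W against P1 (0.51 ± 0.17, 0.015), with 16.3 ± 1.04 CPM at 1W and 11.4 ± 0.932 CPM at P1, a call lost without P1 replicate 1 (0.071). It was not called in the later steps and averaged 13.1 ± 1.29 CPM at 8W. The 8W and 1W levels of either gene were not tested against each other.

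Nuclear subunit RNA was set against the RNA of the 7 complex I genes of the mitochondrial genome (mt-Nd1 to mt-Nd6 and mt-Nd4l) in the same library. The log2 ratio of their summed counts in the series was -0.20 ± 0.09 (SD, n = 3) in E10.5 hearts, 0.76 ± 0.14 in E12.5 and 0.71 ± 0.06 in E14.5 hearts. Its highest mean was 1.13 ± 0.24 (E16.5), followed by 0.83 ± 0.24 (E18.5), 0.51 ± 0.28 (P1) and 0.07 ± 0.10 (1W). From then on it was negative, with -1.37 ± 0.19 (2W), -1.57 ± 0.06 (4W) and -1.30 ± 0.07 (8W). The summed counts of the nuclear subunits were thus above those of the mt-Nd genes from E12.5 to P1 and below them from 2W on. Neither sum was corrected for transcript length or number of genes. The point where the ratio crosses 0 therefore gives no excess or deficit of transcripts, and only its differences between ages are read. The widest step between neighbouring ages was 2W minus 1W, at -1.43, larger than the spread of the libraries of either age.

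As shares of all counts, the 36 nuclear subunits summed to 0.479% ± 0.010 in E18.5, 0.488% ± 0.039 in 2W and 0.629% ± 0.0079 in 8W hearts. The mt-Nd genes took 0.271% ± 0.039 in E18.5, 1.26% ± 0.073 in 2W and 1.55% ± 0.057 in 8W hearts. All RNA encoded by mitochondrial DNA took 19.0% ± 0.17 of the counts at 8W and 4.00% ± 0.44 at E18.5. In the test by gene, all 7 mt-Nd genes rose in 8W against P1 (median 2.94, mt-Nd4 at 3.75 ± 0.14), where 31.8% of all genes tested rose. Mitochondrial messages carry short poly(A) tails, so their absolute level also depends on the poly(A) selection. In E18.5 against E10.5 0 of the 7 rose and 4 fell (median -0.60), against 32.9% and 30.4% of all genes tested. In E18.5 against E12.5, by contrast, 4 rose and 0 fell (median 0.40), against 24.8% and 25.1%. From E10.5, without E10.5 replicate 2 or E18.5 replicate 1 there were 2 falls, with 1 rise in the second case. With library size alone there were 6 falls (36.6% of all genes). In P1 against E18.5 4 rose and 1, mt-Nd6 (-0.78 ± 0.14), fell, against 19.8% and 19% of all genes tested. Without E18.5 replicate 1 or P1 replicate 3 the rises in P1 against E18.5 were 2 or 1.

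**Figure D5:**
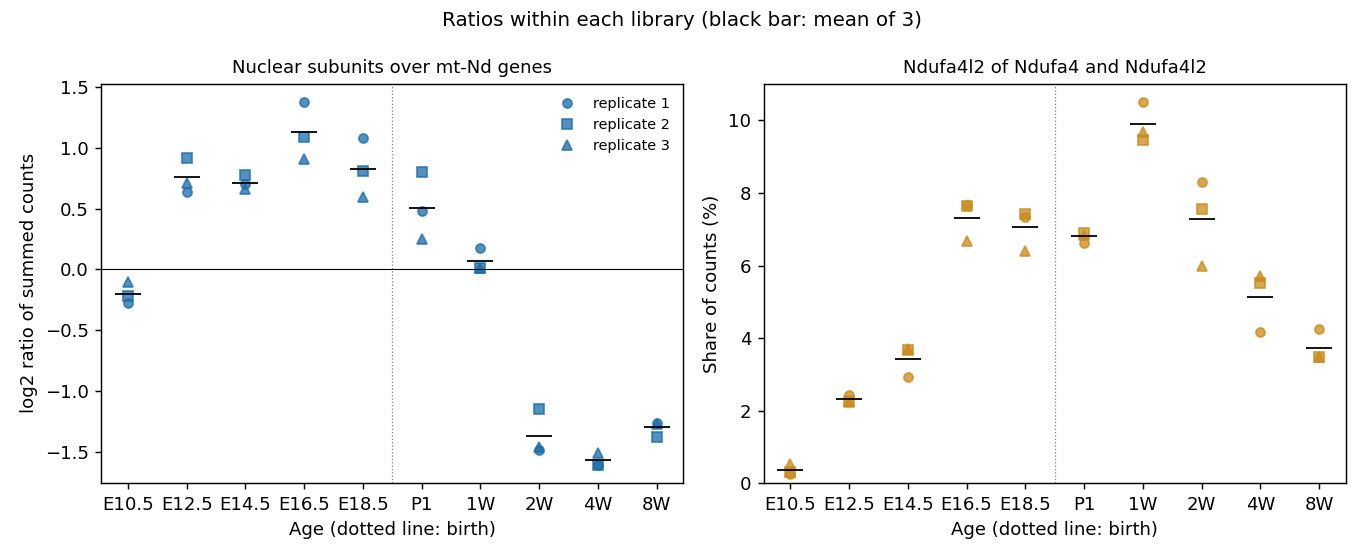
On the left, the log2 ratio of summed counts of 36 nuclear complex I subunit genes over 7 mt-Nd genes; on the right, the share of Ndufa4l2 in the counts of Ndufa4 and Ndufa4l2 (%), both by age, with 1 point per library and a black bar at each mean of 3. The ratio is above 0 at every age from E12.5 to 1W and below -1 from 2W, and the share peaks at 1W (9.89%).

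The other assembly factors of complex I carry other names. Of 11 measured, 5 rose and 3 fell in E18.5 against E10.5, where 32.9% and 30.4% of all genes tested did. In P1 against E18.5 2 rose and 4 fell (19.8% and 19% of all genes), and in 8W against P1 9 rose and 0 fell (31.8% and 35.1%). With library size alone, 5 rose and 5 fell in 8W against P1 (11.5% and 65.2%). Tmem126b, a membrane partner of Ndufaf1, fell across birth (-0.87 ± 0.11) and rose to 8W (1.70 ± 0.11), as Ndufaf5 did, and Ecsit rose in gestation (1.17 ± 0.09) and to 8W (1.45 ± 0.09). Dmac2, which acts on the distal membrane arm in human cells, rose across birth (0.54 ± 0.10). Complex II feeds electrons to ubiquinone from succinate and is wholly nuclear-encoded. It rose in 4 of 4 genes in gestation and to 8W (32.9% and 31.8% of all genes), with Sdha at 1.63 ± 0.08 and 1.23 ± 0.08. The 4 complex II assembly factors had no call in P1 against E18.5, where 19.8% of all genes rose and 19% fell.

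Among 12 regulators of mitochondrial biogenesis, 6 rose and 5 fell in E18.5 against E10.5, where 32.9% and 30.4% of all genes tested did. In P1 against E18.5 4 rose and 3 fell (19.8% and 19% of all genes), and in 8W against P1 10 rose and 2 fell (31.8% and 35.1%). Perm1, a muscle regulator that acts with Ppargc1a and the Esrr factors, rose by 6.11 ± 0.14 in gestation and 2.84 ± 0.10 to 8W, and Ppara, a fatty acid receptor of the nucleus, by 5.52 ± 0.19 and 2.53 ± 0.13. Across birth Pprc1, a coactivator of the Ppargc1a family, fell (-1.01 ± 0.11). Nrf1, a transcription factor of respiratory genes, fell in 8W against P1 (-0.58 ± 0.10), and so did Gabpb1 (-0.84 ± 0.10), while Esrra (1.21 ± 0.10) and Ppargc1a (0.93 ± 0.11) rose. With library size alone 4 rose and 5 fell in 8W against P1 (11.5% and 65.2% of all genes), and 0 rose in P1 against E18.5 (13.4%). In P1 against E18.5, leaving out replicate 1 or 2 of E18.5 or replicate 1 or 3 of P1 gave 2 rises.

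Promoters were read for the members because so many of them moved together. RefSeq promoter windows (250 bases before to 50 after the start, GRCm38.p6) were matched for 40 of the 46 genes, and 4 are shown, those of the genes with the largest change in each main comparison that had an entry. Motif words searched on both strands were NRF1 (GCATGCG, which overlaps its own reverse complement in the full palindrome), YY1 (AAGATGG), ETS (CCGGAAG) and ERR (AAGGTCA), and none contains another. Capitals mark a match. Ndufb10 had the largest subunit rise in gestation and Ndufs7 the largest rise to 8W, while Ndufv1 had the largest rise and Ndufaf5 the largest fall across birth among genes with at least 10 CPM.
Ndufb10, chr17:24724374-24724673, minus strand: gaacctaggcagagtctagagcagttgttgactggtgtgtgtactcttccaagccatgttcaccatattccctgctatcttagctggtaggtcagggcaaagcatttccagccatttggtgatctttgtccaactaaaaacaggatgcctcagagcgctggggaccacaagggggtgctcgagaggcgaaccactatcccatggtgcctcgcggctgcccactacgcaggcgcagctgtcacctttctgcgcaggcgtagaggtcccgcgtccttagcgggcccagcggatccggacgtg
Ndufv1, chr19:4012706-4013005, minus strand: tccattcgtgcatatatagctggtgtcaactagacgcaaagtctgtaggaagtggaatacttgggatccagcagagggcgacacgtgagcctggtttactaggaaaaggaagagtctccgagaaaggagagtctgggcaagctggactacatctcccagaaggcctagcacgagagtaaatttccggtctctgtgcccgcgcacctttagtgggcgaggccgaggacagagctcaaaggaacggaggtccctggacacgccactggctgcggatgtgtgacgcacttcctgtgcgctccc
Ndufaf5, chr2:140170396-140170695, plus strand: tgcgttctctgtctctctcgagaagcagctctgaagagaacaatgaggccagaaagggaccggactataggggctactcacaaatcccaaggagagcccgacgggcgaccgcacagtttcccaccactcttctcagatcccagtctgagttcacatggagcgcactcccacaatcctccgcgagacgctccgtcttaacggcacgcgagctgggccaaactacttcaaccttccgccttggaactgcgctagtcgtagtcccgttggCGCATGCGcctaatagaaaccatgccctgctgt
Ndufs7, chr10:80249199-80249498, plus strand: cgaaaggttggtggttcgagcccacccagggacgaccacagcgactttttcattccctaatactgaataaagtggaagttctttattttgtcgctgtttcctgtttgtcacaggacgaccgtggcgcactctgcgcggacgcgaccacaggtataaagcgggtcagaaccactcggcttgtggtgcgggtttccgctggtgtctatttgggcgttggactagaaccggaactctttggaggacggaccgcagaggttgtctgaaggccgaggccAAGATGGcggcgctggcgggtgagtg

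The NRF1 word was found in 5 of the 40 windows (12.5%, against 4.02% of 27018 promoters in the table), those of Ndufa6, Ndufa8, Ndufa11, Ndufaf4 and Ndufaf5. In Ndufaf5 its matches on the 2 strands start at bases 17 and 18 after the start and overlap. The YY1 word was in 8 windows (20%, against 7.28%), those of Ndufa3, Ndufa9, Ndufaf8, Ndufb8, Ndufc1, Ndufs4, Ndufs6 and Ndufs7, and in Ndufs7 it starts at base 24. ETS words were in 6 windows (15%, against 9.93%) and ERR words in 3 (7.5%, against 5.38%), those of Ndufb2, Ndufb4 and Ndufs5. The windows of Ndufb10 and Ndufv1 held none of these words. Of the genes with the NRF1 word, Ndufaf4 and Ndufaf5 fell across birth, whereas Ndufa6 (-0.31 ± 0.26), Ndufa8 (0.08 ± 0.09) and Ndufa11 (-0.13 ± 0.13) were not called. A match of letters is a description and not a binding site.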

How the data were processed

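The authors deposited 1 table of expected counts per gene for the 30 libraries, in which 6.9% of values were not whole (tolerance 1e-06). Tools named in the submitters' processing notes are STAR 2.5.3a and fastp 0.18.0, with mm10 and GRCm38 as builds and no roles stated. The read counter, its annotation and its strandedness were not given in the sources used here, and overlapping and paralogous genes are uncertain. Per the labels' protocols, poly(A) RNA was captured on oligo-T beads. Symbols were taken from GENCODE M21 by gene identifier (48144 of 48820 genes, 40692 with the same version), and genes without one held 0.22% of counts.

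The expected counts were rounded and fitted as 10 age means with edgeR 4.0.16 in R 4.3.3 (filterByExpr, TMM, robust quasi-likelihood F tests, Benjamini-Hochberg over the 19280 genes tested). The SE was taken as |log2 change| over √F. Centred levels used log2 CPM with a prior count of 2. Shares and ratios were computed in Python 3.11.15 from the deposited counts. The fit was tested on simulated data, and no 2 libraries held identical values. Alternatives were other size factors (RLE, upper quartile, library size alone), no filter or a stricter one (1 CPM in 3 libraries), removal of mitochondrial and globin genes, DESeq2 1.42.0, the replicate number as a block, a fit of just the 6 libraries compared, and removal of single libraries.

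Members were taken by symbol alone, but earlier results of these data were known when that rule and the lists were set. The rule for named genes took the core subunits, all Ndufaf genes, the Ndufa4 pair, the 4 largest called rises and falls of each main comparison among genes with at least 10 CPM, the 3 genes least like the median profile, the 3 highest and 3 lowest per kilobase, and the 2 largest changes of each other list. Other genes named were chosen after their values were seen. Coa1 was not analysed here, and 1 member is counted but not reported by name or value here. Depth ran from 23164934 to 50519452 counts per library.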

Additional observations from a re-analysis of the deposited data

How the results depend on the processing

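Of 4719 checks of 121 called values of single members, 4448 kept the call, 271 lost it and 0 reversed. Most checks left out a single library, often of an age outside the comparison, so this total says little about any 1 alternative. With library size alone 47 of the 121 calls were lost and 74 kept. With library size alone, 7 fell between E10.5 and E18.5 and 2 between E12.5 and E18.5, 3 rose and 15 fell in P1 against E18.5, 2 fell in 8W against P1, 5 rose and 4 fell in 1W against P1, 3 rose and 1 fell in 2W against 1W, and 12 and 6 rose in the steps to 4W and 8W. The median of all genes then lay between -0.12 (P1 against E18.5) and -0.88 (for 8W over P1). Under this scaling 23.3% of all genes fell in 1W against P1 and 36.2% in 2W against 1W. A fit of just the 6 libraries gave 1 fall in E18.5 against E10.5, E18.5 against E12.5 and 1W against P1, 15 falls in P1 against E18.5 and 38 rises in 8W against 4W. In 1W against P1, upper quartile factors gave 5 rises and 1 fall, and the stricter filter, DESeq2 and the replicate block 1 fall each. Among the alternatives, shares of all genes called are given only for library size alone and for the fit without E10.5 replicate 2. Member counts under the other alternatives are thus not set against all genes, and a change in calling over all genes cannot be told apart. Over all genes tested, same-numbered libraries of the ages compared did not deviate together (correlations of -0.102 to 0.114), and the main fit did not pair them. Among the 46 members, however, replicate 2 was the highest for 43 genes at E10.5, 39 at 1W and 42 at 2W. Whether the numbers mark a batch was not tested. The replicate block moved no other count by over 1.5 times.

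Leaving out 1 library gave 21 to 36 rises and 1 to 6 falls in E18.5 against E10.5, 3 to 9 rises and 3 to 14 falls in P1 against E18.5, 44 to 45 rises in 8W against P1 and 24 to 34 in E18.5 against E12.5. The postnatal steps gave 4 to 14 rises and 0 to 1 fall (1W), 9 to 29 rises (2W), 25 to 43 (4W) and 10 to 36 (8W). The most rises came without E10.5 replicate 2 in each of these comparisons. Leaving out single libraries moved the 2W minus 1W difference of the log2 ratio between -1.54 and -1.37. In 8W against P1 with library size alone, 4 biogenesis regulators rose and 5 fell, against 10 and 2 with TMM scaling. Likewise 5 other assembly factors rose and 5 fell, against 9 and 0. Of all genes 11.5% rose and 65.2% fell under this scaling, against 31.8% and 35.1% with TMM. The lowest counts of a member were those of Ndufa4l2 at E10.5 (13 to 47), where depth limits the share of the pair.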
